A study of Mus musculus with 6 samples.

Results

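The surface proteins by which B cell progenitors are sorted into stages are encoded by 8 genes, Flt3, Kit, Spn, Cd93, Cd24a, Bst1, Enpep and Il2ra. They were taken as every probe set of the deposited table that the platform annotation pairs with 1 of these genes alone, which gave 8 probe sets, 1 for each gene, among 28940 probe sets in all and 23410 with at least 1 gene. The values came from sorted pro-B and pre-B cells, studied together and without treatment, of inbred BALB/c mice, with 3 arrays from old mice (24 months) and 3 from young mice (2 months). Each array received 100 ng of RNA that had been amplified to cDNA. No mutation, transgene or drug is given for either group, and it is not stated if RNA of a single mouse or of pooled mice went onto an array, so p-values measure only the spread between these arrays, which may in part be technical. The number of arrays limits the precision. The comparison of the age groups asks how the transcripts of these proteins differ between progenitors of old and young marrow.

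B cells are made in the bone marrow in steps, and each step is read from the proteins on the cell surface. The receptor tyrosine kinases FLT3 (CD135) and KIT (CD117) mark multipotent and early lymphoid progenitors and fade as cells commit to the B lineage. CD43 (Spn), the AA4.1 antigen (Cd93), heat-stable antigen (Cd24a) and BP-3 (Bst1) are used to mark pro-B cells, BP-1 (Enpep) appears on late pro-B and large pre-B cells, and CD25 (Il2ra) marks pre-B cells after the heavy chain gene has been rearranged. The genes are described in that order. Sorted populations that mix these stages can differ in any marker through the share of cells at a stage or through the RNA per cell, and on bulk arrays fewer cells of a type and less RNA per cell cannot be told apart.

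Promoters of 5 of the 8 genes, Flt3, Kit, Spn, Enpep and Il2ra, were found in the RefSeq promoter table of build GRCm38.p6, each 300 bases from 250 before to 50 after the start site. The following 3 are shown because their genes followed different patterns over the 6 arrays, Spn with a level range, Enpep with lower values on all old arrays and Il2ra with low values on some old arrays only. Spn lies on the minus strand at chr7:127137774-127138073, Enpep on the minus strand at chr3:129332700-129332999 and Il2ra on the plus strand at chr2:11642542-11642841. Each is written 5′ to 3′, with capitals at matches to the searched motifs other than the E-box.
Spn promoter: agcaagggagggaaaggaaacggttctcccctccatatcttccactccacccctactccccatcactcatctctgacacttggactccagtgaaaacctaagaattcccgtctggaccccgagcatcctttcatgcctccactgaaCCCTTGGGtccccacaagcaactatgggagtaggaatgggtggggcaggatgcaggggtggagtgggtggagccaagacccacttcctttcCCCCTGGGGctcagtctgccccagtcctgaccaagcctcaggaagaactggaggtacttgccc
Enpep promoter: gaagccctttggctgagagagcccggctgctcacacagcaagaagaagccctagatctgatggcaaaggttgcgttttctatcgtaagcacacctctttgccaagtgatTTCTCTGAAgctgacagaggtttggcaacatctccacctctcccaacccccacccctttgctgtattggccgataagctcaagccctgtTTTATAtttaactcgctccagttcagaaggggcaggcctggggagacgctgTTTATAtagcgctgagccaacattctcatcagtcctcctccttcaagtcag
Il2ra promoter: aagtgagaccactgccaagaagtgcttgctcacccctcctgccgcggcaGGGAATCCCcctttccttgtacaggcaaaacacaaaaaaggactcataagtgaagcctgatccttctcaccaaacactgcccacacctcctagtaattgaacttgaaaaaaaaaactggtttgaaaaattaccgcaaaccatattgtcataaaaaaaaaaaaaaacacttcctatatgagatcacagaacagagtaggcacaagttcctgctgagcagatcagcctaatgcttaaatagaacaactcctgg
The search covered both strands for an E-box (CANNTG), an EBF1 core (CCCNNGGG), a PU.1 core (GAGGAA), a RUNX motif (TGTGGT), an NF-kB motif (GGGANTNCC), a STAT5 motif (TTCNNNGAA) and a TATA box (TATAAA), a set chosen after the values were known. In the Spn promoter the EBF1 core matched at -104, -13 and -12, counted from the start site, the last pair overlapping. Of all 32851 promoters listed by RefSeq, 13.7% held an EBF1 core. In the Enpep promoter the STAT5 motif matched at -141, a motif held by 8.30% of all promoters, and the TATA box matched on the opposite strand at -52 and -1, against 13.6% of all promoters. In the Il2ra promoter the NF-kB motif matched at -201 on both strands, against 3.95% of all promoters. An E-box was found in 4 of the 5 member promoters and in 72.3% of all promoters, and the RUNX motif in 0 of the 5 and in 16.8% of all. RefSeq lists Kit promoters 1 and 2, which overlap. Kit promoter 1 held an EBF1 core, at -164, and a PU.1 core, at -223, the latter found in 28.3% of all promoters. In Kit promoter 2 the same matches stood at -168 and -227. These matches describe the letters of the windows and no binding was measured.

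The arrays were not alike in signal. Log2 values spread over an interquartile range of only 1.52 and 1.51 on old replicates 1 and 2, while that of old replicate 3 was 2.44 and those of the young group 2.72 to 2.89. As a level of background, each array's 95th percentile over 1374 probe sets for smell and pheromone receptors, genes of sensory neurons, was taken. This receptor level stood at 6.31, 6.41 and 5.17 on old replicates 1, 2 and 3 and ranged from 4.60 to 4.84 in the young group. Only 14.5% and 13.1% of the tested probe sets lay above it on old replicates 1 and 2, against 45.9% on old replicate 3 and from 51.2% to 55.7% in the young group. Pearson's r was taken over probe sets, themselves no independent replicates. With a young array it was 0.622 to 0.703 for old replicates 1 and 2 and 0.976 to 0.984 for old replicate 3. Between young arrays it was 0.993 to 0.996, so old replicate 3 also stood apart from them. The differences of the 8 genes are therefore given with and without old replicates 1 and 2. Where a gene lay within the receptor level on an array, the background limits the size of its difference, and a fitted size is no exact change. The median difference between old and young over all tested probe sets was 0.35, and differences are not corrected for it unless said.

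In the comparison of all 6 arrays, 6 of the 8 genes had a lower mean in the old group and 0 passed the threshold of an adjusted p under 0.05 (limma). The genes fell into 3 patterns. Flt3, Kit and Spn had overlapping values in the age groups. Cd93, Cd24a and Il2ra were low on old replicates 1 and 2 and at the young level on old replicate 3. Bst1 and Enpep were the 2 genes with every old array below every young array. Of all tested probe sets 0% passed the threshold, 46.8% had an unadjusted p under 0.05, which 3 of the 8 genes also had, and 22.9% had all old arrays below all young arrays, so that 2 of 8 is near the background. In the opposite direction 36.1% of probe sets and 0 of the 8 genes had all old arrays above all young arrays. The median difference of the 8 genes was -1.17 over all arrays and -0.14 with old replicate 3 as the only old array, where that of all tested probe sets was 0.05. Above the receptor level lay 2, 3 and 7 of the 8 genes on old replicates 1, 2 and 3 and 7, 7 and 8 on young replicates 1, 2 and 3.

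**Figure D1:**
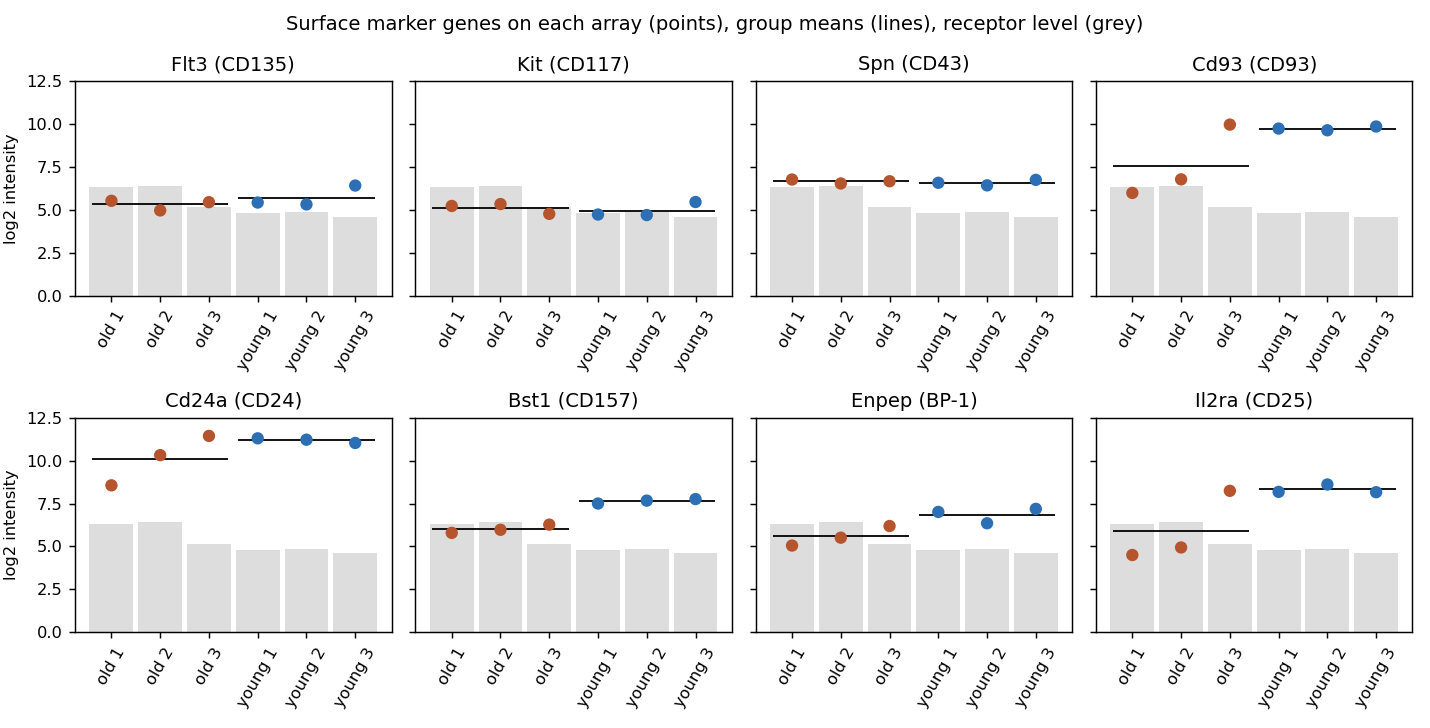
Log2 intensity of the 8 surface marker genes (vertical axis) on each of the 3 old and 3 young arrays (points), with group means as lines and the receptor level of each array as grey bars. Spn stays between 6.42 and 6.76 on all arrays, Bst1 is between 5.79 and 6.27 on the old arrays and between 7.50 and 7.76 on the young ones, and Il2ra separates old replicates 1 and 2 from the other arrays.

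Flt3, the receptor for FLT3 ligand, which early lymphoid progenitors need, stood at log2 intensities of 5.52, 4.96 and 5.44 on old replicates 1, 2 and 3 and of 5.42, 5.31 and 6.41 on young replicates 1, 2 and 3. The groups overlapped, and the highest value was that of young replicate 3. The difference was -0.40 ± 0.35 (SE; adjusted p = 0.342, limma with Benjamini-Hochberg adjustment), with a 95% interval of -1.25 to 0.44. For old replicate 3 alone it was -0.27 ± 0.38 (SE; adjusted p = 0.672, limma). Flt3 lay above the receptor level on the 3 young arrays and old replicate 3 and within it on the other two old arrays.

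Kit, the receptor for stem cell factor, stood at 5.22, 5.33 and 4.76 on old replicates 1, 2 and 3 and at 4.72, 4.69 and 5.45 on the young arrays. Only the value of young replicate 3 lay above the receptor level, so that no size of change is read for Kit. The difference was 0.15 ± 0.30 (SE; adjusted p = 0.677, limma) with an interval of -0.57 to 0.86. It turned to -0.20 with each array centred on its median, to -0.11 after quantile normalization and to -0.20 with old replicate 3 as the only old array.

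Spn encodes CD43, a heavily glycosylated sialomucin of blood cells. Its values were 6.76, 6.53 and 6.66 on the old arrays and 6.57, 6.42 and 6.74 on the young arrays, all above the receptor level. The old mean was 6.65 ± 0.12 (SD, n = 3) and the young mean 6.58 ± 0.16 (SD, n = 3), a difference of 0.07 ± 0.21 (SE; adjusted p = 0.769, limma) with an interval of -0.42 to 0.57. For old replicate 3 alone it was 0.09 ± 0.16 (SE; adjusted p = 0.754, limma). On old replicates 1 and 2 Spn thus stood near its young level on the intensity scale while the spread of all probe sets had narrowed. The receptor level of these arrays, 6.31 and 6.41, was close to the young mean of Spn. A fall of Spn could therefore hardly show on them. Its percentile among all probe sets of an array was 90.9 and 87.4 there, against 80.3 on old replicate 3 and 75.6 to 78.0 on the young arrays. Accordingly the difference was -0.27 with array medians centred and 0.83 after quantile normalization, and no direction is given for Spn.

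Cd93 encodes a C-type lectin-like receptor, the antigen of the AA4.1 antibody that marks immature B cells. It stood at 5.98 and 6.77 on old replicates 1 and 2, at 9.96 on old replicate 3 and at 9.73, 9.63 and 9.85 on the young arrays. Old replicate 3 was the highest of all 6 arrays, and old replicate 1 lay within the receptor level. The difference over all arrays was -2.16 ± 0.95 (SE; adjusted p = 0.113, limma), or -1.33 after quantile normalization, and for old replicate 3 alone against the young arrays it was 0.23 ± 0.14 (SE; adjusted p = 0.325, limma).

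Cd24a, which encodes a small glycoprotein held in the membrane by a lipid anchor, was at 8.56, 10.32 and 11.44 in the old group and at 11.30, 11.22 and 11.03 in the young group. It lay above the receptor level on all 6 arrays and was the gene of the 8 for which old replicates 1 and 2 differed most from each other. Relative to the young mean of 11.18 ± 0.14 (SD, n = 3) the old arrays differed by -2.62, -0.86 and 0.25. The difference over all arrays was -1.08 ± 0.67 (SE; adjusted p = 0.204, limma), and only -0.07 after quantile normalization. For old replicate 3 alone it was 0.25 ± 0.15 (SE; adjusted p = 0.304, limma).

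Bst1 encodes BP-3 (CD157), a lipid-anchored ectoenzyme of the ADP-ribosyl cyclase family that is found on early B cells and stromal cells, among others. It stood at 5.79, 5.97 and 6.27 in the old group and at 7.50, 7.67 and 7.76 in the young group, without overlap. Old replicates 1 and 2 lay within the receptor level and old replicate 3 above it. The difference over all arrays was -1.64 ± 0.22 (SE; unadjusted p = 0.000185, adjusted p = 0.101, limma), and with every value raised to the receptor level of its array it was -1.32 (adjusted p = 0.0186, limma; 13.3% of all probe sets were called lower there). With old replicate 3 as the only old array the difference was -1.37 ± 0.14 (SE; adjusted p = 0.00817, limma), a value 2.59-fold below the young mean and with an interval of -1.71 to -1.04. That fit takes its spread from the 3 young arrays and assumes that the lone old array varies as they do. Of all 23410 tested probe sets 0.265% lay as far or farther below the young mean on old replicate 3.

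Enpep encodes BP-1, aminopeptidase A, a membrane enzyme that removes acidic residues from the ends of peptides. It was at 5.05, 5.51 and 6.19 in the old group and at 7.01, 6.35 and 7.19 in the young group, again without overlap, though old replicate 3 and young replicate 2 were close. As for Bst1, only old replicate 3 of the old arrays lay above the receptor level. The difference was -1.27 ± 0.37 (SE; adjusted p = 0.101, limma) over all arrays and -0.66 ± 0.29 (SE; adjusted p = 0.191, limma) for old replicate 3 alone, with an interval of -1.34 to 0.02. On old replicate 3, 5.18% of probe sets lay as far or farther below the young mean as Enpep.

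Il2ra encodes the alpha chain of the interleukin 2 receptor, CD25. Its values were 4.50 and 4.94 on old replicates 1 and 2, both within the receptor level, 8.24 on old replicate 3, and 8.18, 8.61 and 8.16 in the young group. Old replicate 3 thus lay inside the young range. The difference was -2.43 ± 0.93 (SE; adjusted p = 0.101, limma) over all arrays and -0.08 ± 0.19 (SE; adjusted p = 0.813, limma) for old replicate 3 alone, with an interval of -0.54 to 0.37.

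**Figure D2:**
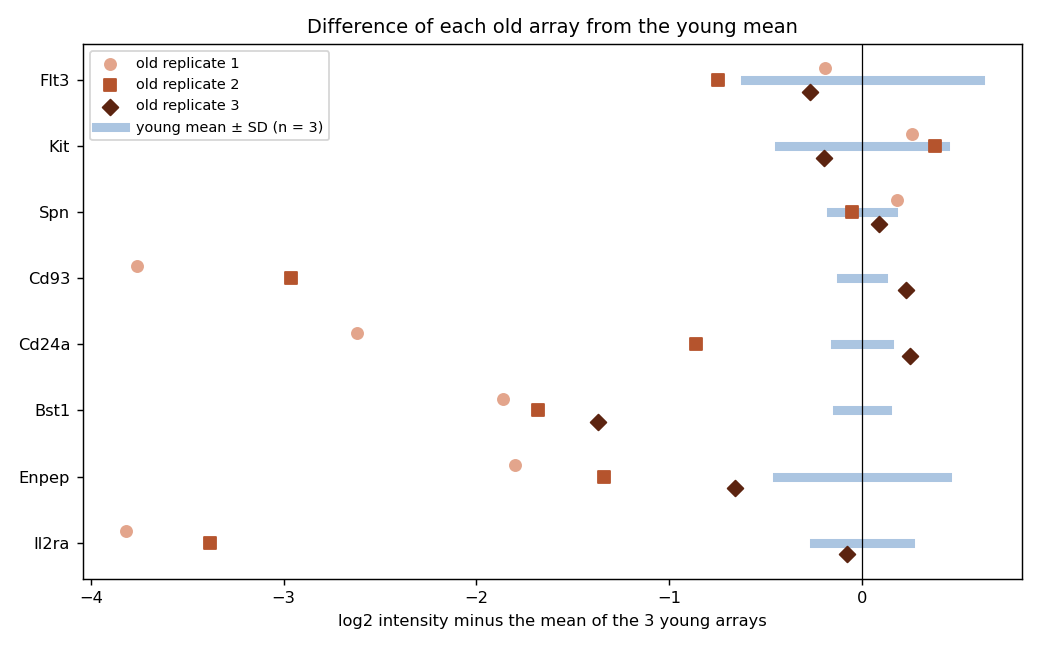
Log2 intensity of each old array minus the mean of the 3 young arrays (horizontal axis) for the 8 genes (rows), with the young mean ± SD (n = 3) as a bar. On old replicate 3, Bst1 is 1.37 below the young mean and Enpep 0.66 below, while Cd93 and Cd24a are 0.23 and 0.25 above it; on old replicates 1 and 2, Cd93 and Il2ra are the lowest.

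The calls changed with the arrays that entered the fit. With all 6 arrays kept, array weights called 5 of the 8 genes, where 19998 of all 23410 tested probe sets were called. Those weights gave old replicate 3 only 0.0447, against 2.6 for old replicate 2. Values raised to the receptor level called 3 of the 8, Cd93, Bst1 and Il2ra, all lower. There 13.3% of all tested probe sets were called lower, and 16297 of the 23410 were called in either direction. Without old replicate 3, 5 of the 8 genes, Cd93, Cd24a, Bst1, Enpep and Il2ra, were called lower (adjusted p from 2.00e-05 to 0.0116, limma) and 0 higher, where 30.2% of all tested probe sets were called lower and 52.2% higher. Of these 5, only Cd24a, with a difference of -1.74, lay above the receptor level on both old arrays of that fit. Bst1, Enpep and Il2ra were within it on both and Cd93 on old replicate 1, so no sizes are read for them there. With old replicate 3 as the only old array, 1 of the 8 genes, Bst1, was called lower and 0 higher, where 5.24% of all probe sets were called lower and 1.76% higher. Under 16 alternative settings, of which 1 changes only the threshold, the difference of Bst1 lay between -1.98 and -1.04 and that of Enpep between -1.61 and -0.55. That of Il2ra ran from -3.60 to -0.08, the latter within its error. The difference in signal between the old arrays moved with the calls, and its part in them was not tested.

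**Figure D3:**
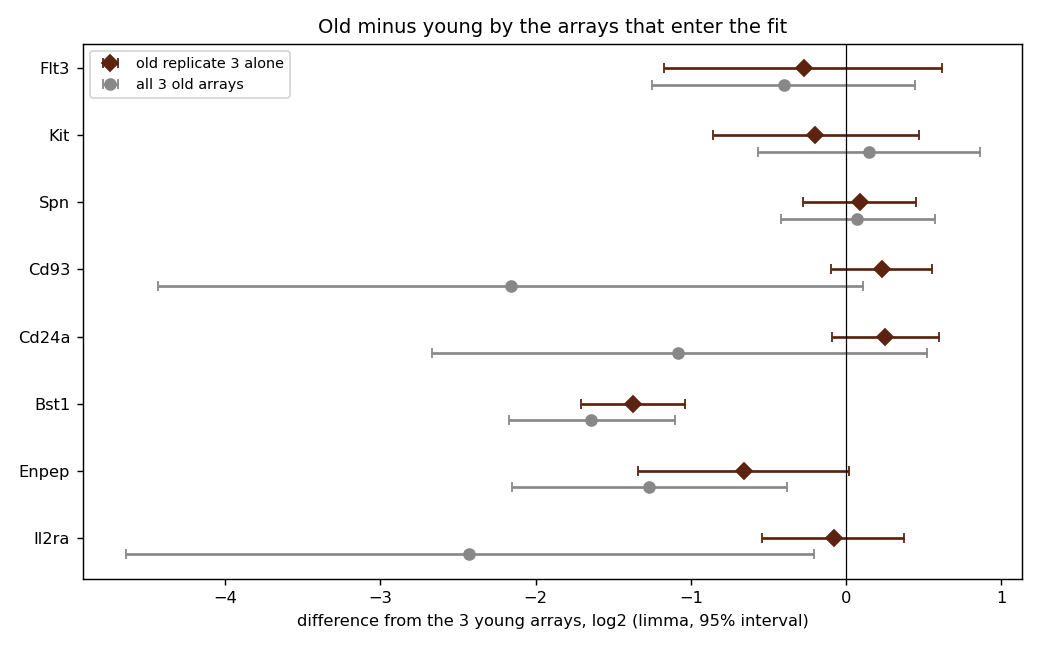
Difference from the 3 young arrays with its 95% interval from limma (horizontal axis, log2), for the 8 genes (rows), with all 3 old arrays or with old replicate 3 alone. The intervals of Cd93, Cd24a and Il2ra span 0 for old replicate 3 alone and are wide for all old arrays, and that of Bst1 lies below 0 in both.

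Within the young group the genes also varied, and young replicate 3 stood at an end for each of them. It was the highest young array for 6 of the 8 genes, Flt3, Kit, Spn, Cd93, Bst1 and Enpep, and the lowest for the other two, Cd24a and Il2ra. Over all tested probe sets young replicate 3 was highest in 36.5% and lowest in 37.8%. Over the 11658 above the receptor level on all young arrays it was highest in 49.8% and lowest in 27.9%. Compared with the mean of young replicates 1 and 2, Flt3 was 1.05 higher on it, Kit 0.74 and Enpep 0.51, on the log2 scale, and Il2ra differed by -0.24. Of all tested probe sets 0.231% were as far or farther above as Flt3, 0.748% as Kit and 2.43% as Enpep. These are single arrays and no test was made. Markers of some other marrow cells, though not of all, moved with Flt3 and Kit. On young replicate 3, 10 of 10 neutrophil markers were highest among the young arrays, with a summed intensity of 10600 against 8480 and 8140. The same held for 6 of 7 monocyte or macrophage markers, with a summed intensity of 1260 against 685 and 619. It held for 5 of 5 erythroid, 5 of 6 mast cell or basophil, 3 of 3 plasmacytoid dendritic cell and 5 of 8 stroma or endothelium markers as well. Of the stem or multipotent progenitor markers only 2 of 5 were highest on young replicate 3. The counts were 3 of 7 for T cells, 2 of 6 for NK cells, 1 of 4 for megakaryocytes and 1 of 5 for plasma cells. The part of these cells in the values of Flt3 and Kit was not tested.

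Genes of neighbouring stages were set beside the markers on the young arrays and old replicate 3, the old array nearest to them in signal. Its interquartile range was still lower and its receptor level higher than on any young array. The lists of 7 earlier and 7 later genes were chosen after the values of the surface markers, and of some of the listed genes, were known. Of the earlier genes 5 of 7 were highest on young replicate 3 among the young arrays, and of the later genes 7 of 7 were lowest on it. All of them lay above the receptor level on every young array. Of all such probe sets 49.8% were highest and 27.9% lowest on young replicate 3. Dntt, the terminal transferase that adds bases at rearranging heavy chain genes, was at 5.13 on old replicate 3 and at 6.69, 6.59 and 8.18 in the young group. Lef1, a transcription factor of pro-B cells, was at 6.35 against 7.40, 7.21 and 7.96. Igll1, a part of the surrogate light chain, was at 7.86 against 9.11, 8.77 and 9.54. Dntt on old replicate 3 lay within the receptor level. On old replicate 3 the earlier genes had a median difference from the young arrays of -1.18 and 2 of 7, Lef1 and Igll1, were called lower (adjusted p = 0.0429 and 0.0346, limma), against 5.24% of all probe sets. The later genes, such as Ms4a1 (CD20), Cd2 and Spib, had a median of 0.10 there and 0 of 7 were called. Ms4a1 was at 9.02 on old replicate 3 and at 8.91, 9.28 and 8.45 in the young group. On old replicate 3, Bst1 and Enpep stood below all young arrays, as did Dntt, Lef1, Erg, Igll1 and Myb of the earlier list. Irf4 of the later list did too, at 7.99 against 8.02 to 8.07. Il2ra was within the young range, as were Vpreb1, Ms4a1, Cd2, Ikzf3, Cd22 and Cd40. Cd93 and Cd24a, and Sox4 and Spib of the lists, stood above all young arrays. The share of all probe sets at each position was not computed, so no difference between stages is read from these positions. Sox4, Myb and Vpreb1 of the earlier list differed by 0.22, -0.26 and -0.17 on old replicate 3.

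**Figure D4:**
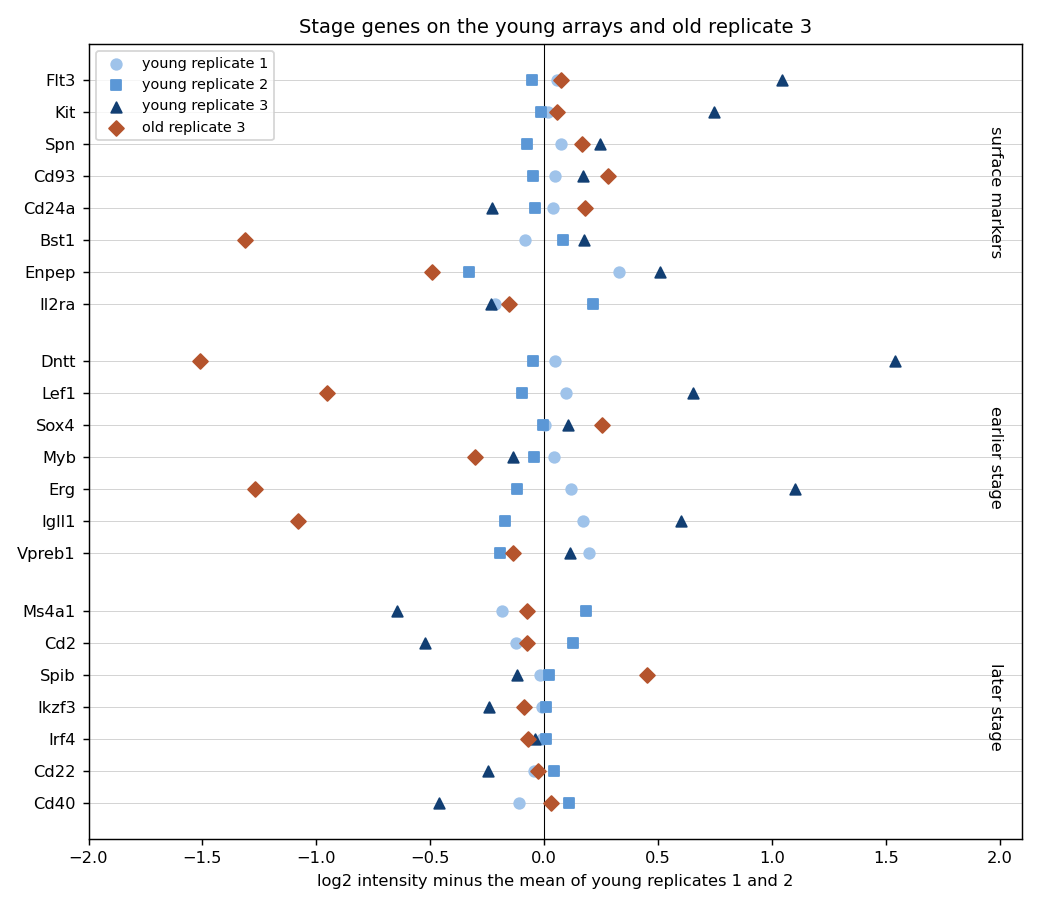
Log2 intensity on the 3 young arrays and old replicate 3 minus the mean of young replicates 1 and 2 (horizontal axis), for the surface markers and 14 earlier and later stage genes (rows). Young replicate 3 lies to the right for Flt3, Kit, Dntt and Erg and to the left for Ms4a1, Cd2 and Cd40, and old replicate 3 lies to the left for Bst1, Dntt, Lef1, Erg and Igll1.

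Ligands and partners of the surface proteins were followed in lists, described here by counts and medians beside a median of 0.37 over 19938 genes. In the list of KIT and FLT3 ligands and signalling proteins 12 of 15 measured genes had lower old means, 0 passed the threshold and the median was -0.86 over all arrays and -0.12 on old replicate 3. By size of unadjusted p it was led by the adaptor Shc1 (-1.07 ± 0.26, SE), the ubiquitin ligase Cbl (-1.47 ± 0.53, SE), Pik3r1, a regulatory subunit of PI3 kinase (-2.21 ± 0.80, SE), and the exchange factor Sos1 (-1.09 ± 0.40, SE). On old replicate 3 alone Cbl, Pik3r1 and Sos1 differed by -0.22, -0.19 and -0.26, and Shc1 lay within the receptor level. In the other direction the adaptor Sh2b3 differed by 0.32 ± 0.22 (SE), and by 0.44 on old replicate 3 alone. Of the ligand genes Kitl was within the receptor level on all 6 arrays and Flt3l was at 6.94, 6.43 and 5.96 on the old and 6.33, 6.25 and 5.88 on the young arrays.

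Of the IL-2 receptor complex 2 of 9 genes had lower old means and 0 passed, with a median of 0.08 over all arrays and -0.06 on old replicate 3. Jak1, the kinase bound to the beta chain, was at 5.22, 5.84 and 9.04 in the old group and at 9.14, 9.35 and 9.33 in the young group, so that it had the split of Il2ra. Il2rb, the beta chain that CD25 needs for signalling, and Il2 itself were within the receptor level on all 6 arrays.

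Among partners of CD24 and CD43, 6 of 9 genes had lower old means, 0 passed and the median was -1.39 over all arrays and -0.02 on old replicate 3. Siglecg, a lectin that binds CD24, was at 5.78, 6.01 and 8.65 on the old and at 8.97, 8.77 and 8.41 on the young arrays. Moesin (Msn), which ties CD43 to the cytoskeleton, was at 6.06, 5.37 and 9.95 against 9.87, 9.79 and 9.91. Hmgb1, a chromatin protein that CD24 can bind outside cells, was the gene of this list that passed on old replicate 3 alone (-1.28, adjusted p = 0.0144, limma). Both Siglecg and Msn were thus lower on old replicates 1 and 2 where Spn was not. The young level of Spn was already close to the receptor level of those arrays, which limits how far Spn could fall.

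Of the ectoenzymes and angiotensin genes related to Enpep and Bst1, 3 of 9 had lower old means and 0 passed over all arrays, with a median of 0.53 and, on old replicate 3, of 0.02. The 3 were Dpp4 (CD26), a peptidase of the cell surface, the peptide-trimming Erap1 and Entpd1 (CD39). Dpp4 was at 5.89, 5.09 and 9.65 on the old and at 10.04, 10.04 and 9.96 on the young arrays, Erap1 at 4.22, 4.41 and 5.91 against 6.25, 6.32 and 6.60. Entpd1 differed by -0.64 on old replicate 3 alone (adjusted p = 0.0484, limma). Anpep and Mme, which encode the surface peptidases CD13 and CD10, lay within the receptor level on all 6 arrays. In the family of Cd93, Thbd stood at 5.02, 4.58 and 5.99 against 5.98, 5.85 and 6.06, and 0 of 5 genes passed, with a median of 0.22 over all arrays and 0.03 on old replicate 3. Cd248, a related C-type lectin-like protein of stromal cells, differed by 1.09 ± 0.31 (SE; adjusted p = 0.101, limma) and by 0.46 on old replicate 3 alone (adjusted p = 0.0681, limma).

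Among 18 other surface genes of B cell stages, 16 had lower old means, 0 passed and the median was -1.22 over all arrays and 0.03 on old replicate 3. By unadjusted p the list was led by the integrin chain Itga4 (-2.91 ± 0.99, SE), the hyaluronan receptor Cd44 (-1.02 ± 0.37, SE), Cd79b of the B cell receptor (-2.66 ± 0.98, SE) and the inhibitory receptor Cd72 (-3.17 ± 1.22, SE). On old replicate 3 these 4 differed by -0.39, -0.21, -0.15 and -0.04. Of the 18, 0 were called on old replicate 3 alone (limma), where 5.24% of all probe sets were called lower and 1.76% higher. Cd34 and Cd27, which precede or follow the pro-B stage, were at 3.99 and 5.80 on old replicate 3 and at 3.93 to 4.16 and 5.74 to 6.05 on the young arrays, with Cd34 within the receptor level on all 6.

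For each surface marker the 3 genes with the most similar profile were those with the smallest root mean square distance over the 6 arrays, after subtraction of the young mean of each probe set. The profile of Bst1 was nearest to Atp6v1b2, at a distance of 0.103 on the log2 scale, then to Ebpl (0.121) and Fam72a (0.142). Enpep was nearest to Rad54l (0.119), then to Adal and Cdca2. Cd93 was nearest to Larp4b (0.0685), Rbm33 and Ttc1, and Il2ra to Zfp825 (0.113), Trp53inp1 and Iws1. Cd24a was nearest to single probe sets of Rpl27a (0.0853), Rps29 and Rpl23a, ribosomal protein genes with 9, 4 and 13 probe sets. Flt3 was nearest to Gda (0.125), Slfn9 and Fcer1g, Kit to Actn1 (0.0573), Ptpn3 and Adgrg7, and Spn to Mcph1 (0.0348), Slc25a33 and Tctex1d2. With 6 arrays, of which old replicates 1 and 2 differ most from the rest, many genes share such profiles. Of the nearest probe sets, those of Adgrg7 and Slc25a33 lay above the receptor level on 0 arrays. Those of Gda, Actn1, Ptpn3 and Tctex1d2 did so on 1 array, as did Kit itself. These likenesses are largely between background values.

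The labelled cell type was checked by B lineage markers. Above the receptor level lay 9 of 9 measured markers on old replicate 3 and on each young array, and 4 and 3 of 9 on old replicates 1 and 2, where Vpreb1, Igll1 and Cd79b remained. Markers of other marrow cells were present too. All 10 neutrophil markers lay above the receptor level on old replicate 3 and on each young array and 3 of 10 on old replicates 1 and 2. Their summed intensity was 2070 to 8580 over the old and 8140 to 10600 over the young arrays, with S100a8 at 10.30 to 11.51 on the log2 scale. Of the stem or multipotent progenitor markers 0, 0 and 1 of 5 were above on the old arrays and 1, 1 and 2 of 5 on the young arrays, and Cd34, Procr and Meis1 were within the receptor level on all 6. Markers of T cells, NK cells, megakaryocytes and plasma cells had summed intensities of at most 285, 203, 183 and 220 on any array, and those of plasmacytoid dendritic cells of at most 333. Of the stroma or endothelium markers, a further site of Bst1 expression, 1, 1 and 2 of 8 were above on the old and 4, 4 and 5 of 8 on the young arrays, with summed intensities of 320 to 416 and 474 to 495. Of the 8, 7 had higher old means, as did 12616 of all 19938 genes. The list's median was 0.37, the same as that of all genes. On old replicate 3 it was -0.01, against 0.04 over all genes. The 1 marker with a lower old mean was Pecam1, an adhesion protein of endothelium and blood cells. Pecam1 was at 4.97, 5.32 and 7.87 in the old group and 8.27 to 8.30 in the young group. On old replicate 3 the median difference was -0.13 for the neutrophil and -0.18 for the monocyte or macrophage markers. The part of stromal, myeloid or other marrow cells in the values of Bst1 was not tested.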

How the data were processed

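Sorted B cell progenitors were measured on 6 whole-transcript arrays. The authors deposited probe set intensities on a linear scale, from 3.58 to 8502, made with RMA according to the labels (per the submitters' processing notes). Its version is not given in the sources used here. Log2 was taken of the deposited intensity. The platform annotation names 1 gene for 21789 of 28940 probe sets, several for 1621 and none for the other 5530. The test was limma's moderated test (limma 3.58.1, R 4.3.3) over the 23410 probe sets with a gene, with age as the only factor, a 2-sided test and Benjamini-Hochberg adjustment, at an adjusted p under 0.05. Groups came from the labels. Plots were drawn with matplotlib 3.10.9 and tables made with pandas 2.3.3 under Python 3.11.15, and the code was tested on simulated data.

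The members, gene lists and alternatives were chosen with earlier results of these data known. Named were all members, their 3 nearest profiles (unnamed gene models and olfactory or vomeronasal receptors left out), up to 4 genes per list with the smallest p in its main direction and up to 2 in the other, cell type markers, and genes singled out after their values were seen, among them Flt3l, Anpep, Mme and those of the earlier and later lists. A gene of a list is given by its probe set with the highest mean.

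Replicate numbers are shared by the groups. Deviations of same-numbered arrays correlated at 0.157, 0.150 and 0.279, above the limit of 0.1, so the numbers were treated as a pairing in an alternative fit. Old 1 with young 2 (0.153) and old 2 with young 1 (0.141) correlated about as much, so the data do not single out this numbering. Further alternatives were leaving out each array or old replicates 1 and 2, scaling, moderation, array weights, filters, the receptor level as a floor and an adjusted p under 0.1.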

Additional observations from a re-analysis of the deposited data

How the results depend on the processing

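The count of called probe sets over the whole table, 0 in the main comparison, was 19998 with array weights, 1638 with old replicates 1 and 2 left out and 16297 with values raised to the receptor level, a floor that is itself higher on old replicates 1 and 2, so that dim probe sets become higher there. It ranged from 0 to 19285 when each array was left out in turn, 19285 being without old replicate 3. Of the 8 genes 5, 1 and 3 were called under those settings, and 0 to 5 with an array left out. Of 136 genes in the 18 lists of pathways and markers, the earlier and later stage lists left out, 6 were called with old replicates 1 and 2 left out and 0 to 97 with an array left out. The fit with the replicate block called 0 probe sets and 0 of the 8 genes and changed no call (Bst1 at adjusted p = 0.0810, limma). Centring, quantile normalization, the filter on dim probe sets, all probe sets, trended moderation and an adjusted p under 0.1 left both counts at 0. Signs turned for genes that were not called. Kit stood at -0.20 with array medians centred, -0.11 after quantile normalization and -0.20 with old replicates 1 and 2 left out, Spn at -0.27 with medians centred and, with an array left out, from -0.01 (without young replicate 2) to 0.16 (without young replicate 3), Flt3 at 0.34 with values raised to the receptor level, and Cd93 and Cd24a at 0.23 and 0.25 with old replicates 1 and 2 left out. The cause was not tested. The array weights did not fully converge and gave old replicate 3 a weight of 0.0447.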

Other observations

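On old replicate 3 alone against the young arrays, 6 of 136 genes of the pathway and marker lists were called by limma, Car1, Hmgb1, Igll1, Meis1 and Entpd1 lower and Tnfrsf17 higher, where 5.24% of all probe sets were called lower and 1.76% higher. Lef1, in the earlier stage list and not among the 136, was called lower too. Car1, a carbonic anhydrase of erythroid cells (adjusted p = 0.00817), had values of 4.57, 5.84 and 5.10 on the old and 6.65, 6.97 and 7.13 on the young arrays, the old values all within the receptor level, so that no size is read. The 5 erythroid markers had a median of -0.22 on old replicate 3, with Alas2, the first enzyme of haem synthesis in red cells, at 5.86 on old replicate 3 and 5.62 to 6.11 on the young arrays. Meis1 and Tnfrsf17 never rose above the receptor level, and their sizes of change are left out.

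Among markers of myeloid cells, Ly6g, a neutrophil surface protein, was at 6.22 on old replicate 3 and at 7.52, 7.28 and 8.54 on the young arrays (adjusted p = 0.0651, limma), and Lyz2, lysozyme of macrophages and neutrophils, at 8.17 against 8.88, 8.66 and 9.86 (adjusted p = 0.170, limma). Neither passed the threshold. S100a8 was at 11.51 on old replicate 3 and at 11.30 to 11.47 on the young arrays.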
